A study of Mus musculus with 18 samples.

Results

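The genes described here are 10 members of the pericellular proteolysis system, namely the matrix metalloproteases Mmp2, Mmp3, Mmp9, Mmp10, Mmp13 and Mmp14, the related protease Adamts1, and the tissue inhibitors of metalloproteases Timp1, Timp2 and Timp3. They were picked by gene name, and all 10 of 10 were found among the 23212 gene names of the merged gene models and among the 12236 genes tested, a set kept by a minimum of 1 FPKM in 2 or more libraries. FPKM are fragments per kilobase of transcript and per 1000000 mapped fragments, here added over the transcripts that were assembled on a gene. Of the 10 genes, 9 had an assembled transcript in each of the 18 RNA-seq libraries, and Mmp9 had none in 8 libraries, those of both mutant lines at 0 h and 1 h. The libraries came from immortalized mouse embryonic fibroblasts that lack RelA (rela−/−) and were given back mouse RelA with a pBABE-puro retrovirus. The lines carried RelA(TA2), in which L449A and F473A change the TA2 part of the transactivation domain that meets the TAZ1 domain of CBP/p300, RelA(Ser276Ala), in which S276A removes a phosphorylation site that takes part in the contact with the same coactivators, or RelA(wt). Each line was taken before TNFα and after 1 h and 2 h of 5 ng/ml TNFα, with 2 libraries per condition, and the comparisons ask which genes answer to TNFα and how their levels differ with each RelA mutation. Each line is a single reconstituted culture line that lacks endogenous RelA, so a difference between lines may belong to the line as well as to the allele, and the 2 libraries of a condition measure the spread within a line.

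Matrix metalloproteases are zinc enzymes that are made as inactive precursors and cut components of the extracellular matrix, growth factors and one another. Mmp2 and Mmp9 are the gelatinases, Mmp3 and Mmp10 the stromelysins, Mmp13 is the main interstitial collagenase of the mouse, and Mmp14 is held in the plasma membrane, where it activates the Mmp2 precursor together with Timp2. Adamts1 cleaves the proteoglycans aggrecan and versican. The Timp proteins block the active site of these enzymes, and fibroblasts are a main source of both sides of the balance in inflamed tissue, where TNFα acts through NF-κB and AP-1 factors.

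The 10 genes differed widely in level. By median FPKM over the 18 libraries Timp2 stood highest at 331, followed by Mmp3 at 155, Mmp14 at 134, Timp3 at 83.9, Mmp10 at 71.2, Timp1 at 56.9, Mmp2 at 14.0, Adamts1 at 13.1, Mmp13 at 4.40 and Mmp9 at 1.76. The ranges over libraries of Mmp3 (125 to 214 FPKM) and Mmp14 (115 to 169 FPKM) overlapped, as did those of Timp3, Mmp10 and Timp1 and those of Mmp2 and Adamts1, while Timp2 (278 to 415 FPKM) stood above all the others in every library. Summed FPKM has a limit that matters for this group. Where the assembler left a gap within a gene, that gene was reported as several shorter transcripts, each with an FPKM of its own, and their sum is larger than that of a single full transcript with the same fragments. Mmp10 was assembled in 2 pieces in 9 of 18 libraries, Mmp13 in 2 or more pieces in 10 libraries (at most 4), Mmp9 in 7 libraries (at most 4), Mmp2 in 2 libraries and Adamts1 in 2 libraries. Mmp3, Mmp14, Timp1, Timp2 and Timp3 always came as 1 locus. For this reason each result is given in summed FPKM and, beside it, in the number of fragments that can be worked out from each transcript's FPKM and confidence limit (or length, in a locus with several transcripts), scaled to 1000000 fragments in genes (FPM), which does not grow when a gene is split. In median FPM per kilobase of exon, Mmp14 (222) stood above Mmp3 (160) and Timp1 (57.8) above Mmp10 (41.5), with the order of the other genes unchanged.

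**Figure D1:**
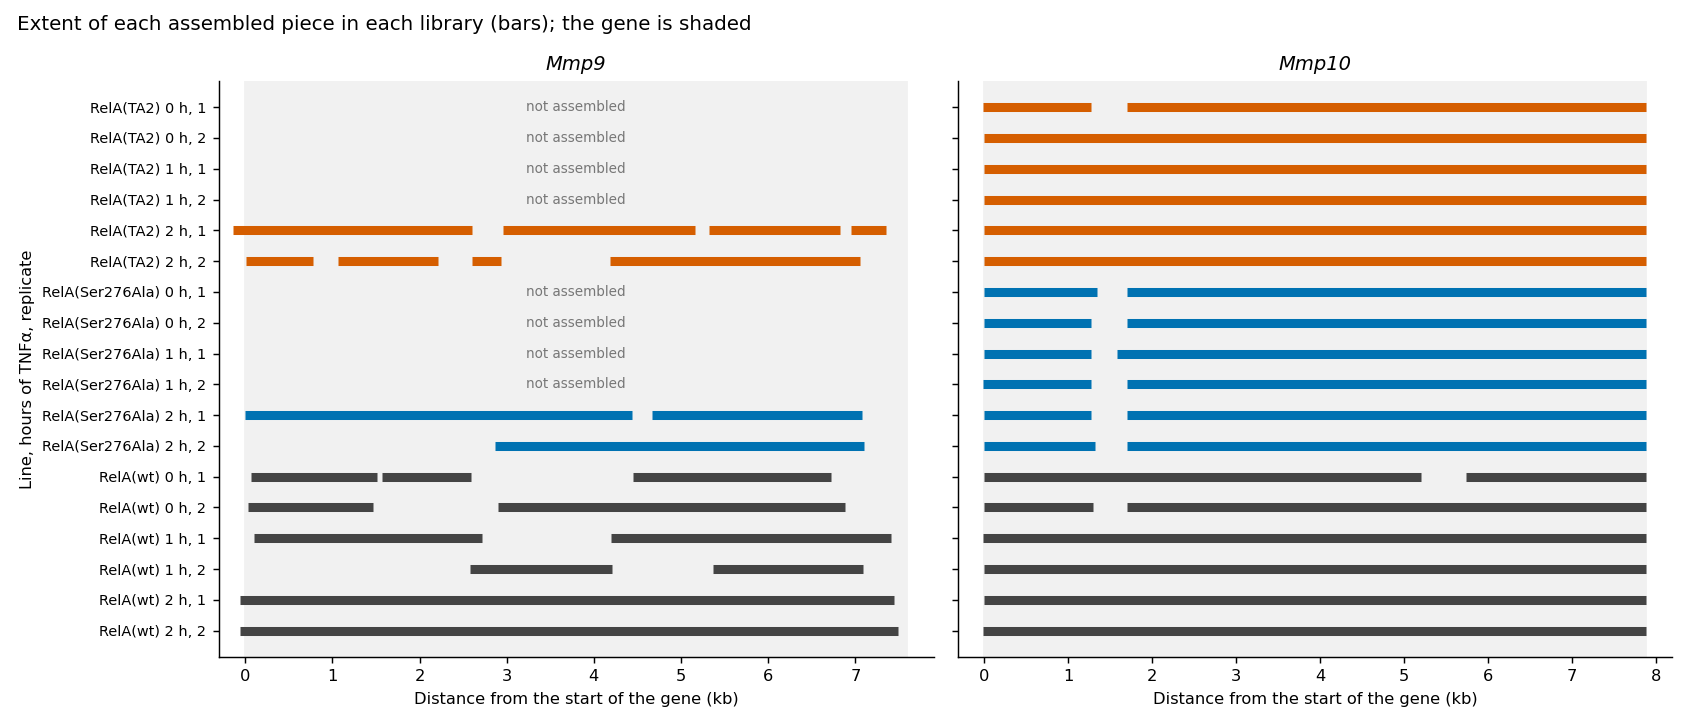
Extent of each assembled piece of Mmp9 (left) and Mmp10 (right) in the 18 libraries, as distance from the start of the gene in kb, with RelA(TA2) above RelA(Ser276Ala) and RelA(wt), and hours of TNFα and replicate number in the row names. Mmp9 was assembled in 10 libraries and as a single, nearly full-length piece only in the RelA(wt) libraries at 2 h, while Mmp10 was in 2 pieces in 9 libraries, among them all 6 RelA(Ser276Ala) libraries.

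The libraries held 25300000 to 31300000 mapped fragments, and 95.5% to 98.4% of the recovered fragments lay in genes. The lowest shares belonged to RelA(TA2) at 0 h replicate 1 (95.5%) and RelA(Ser276Ala) at 1 h replicate 1 (95.6%). Rela itself, whose mRNA includes that of the retroviral copy, stood at 315 to 366 FPKM in RelA(TA2) cells and at 174 to 211 FPKM in RelA(Ser276Ala) cells, against 156 to 187 FPKM in RelA(wt) cells (log2 difference of 0.95 for RelA(TA2), SE 0.06, adjusted p = 3.53e-06). These mRNA values do not give the amount of protein, which the paper reports to be lower for RelA(Ser276Ala) than for RelA(wt). All 10 fibroblast markers were in the tested range. Of the macrophage list 4 of 8 genes were tested, with Cd68, Csf1r and Cd14 above 0 in all 18 libraries (Cd68 at 4.23 to 16.9 FPKM) and Ptprc and Tyrobp listed at 0 in all. Of the endothelial list 2 of 5 were tested, with Cdh5 at 1.12 to 12.3 FPKM and Pecam1, Tek and Vwf at 0, and of the epithelial list 1 of 5, with Krt8 at 1.85 to 26.0 FPKM and Epcam and Cdh1 at 0. Of the smooth muscle list 2 of 4 were tested, with Acta2 at 28.9 to 142 FPKM, Des at 1.71 to 4.76 FPKM and Myh11 and Cnn1 at 0. Summed fibroblast markers came to 17715 to 20196 FPM in RelA(TA2) cells, 12568 to 13597 in RelA(Ser276Ala) cells and 14735 to 16290 in RelA(wt) cells. Summed smooth muscle markers, of which Acta2 made up most, came to 228 to 330, 77.1 to 115 and 48.5 to 70.8 FPM in the same order of lines. The macrophage list came to 17.7 to 25.8, 24.7 to 28.1 and 26.4 to 31.0 FPM, the endothelial list to 2.15 to 6.27, 6.48 to 9.57 and 1.23 to 2.72 FPM, and the epithelial list to 2.71 to 6.99, 4.51 to 8.79 and 4.37 to 7.35 FPM. Rela and the fibroblast and smooth muscle lists differ with the line, as do the macrophage and endothelial lists in part, and their part in the line differences below was not tested.

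Over the 3 lines, the mRNA of Adamts1 rose at 1 h, and those of Timp1, Timp3 and Mmp9 rose at 2 h, while Mmp2 fell. In FPKM, 2 of the 10 genes passed the test at 1 h against 0 h (1 higher, 1 lower), where 4.35% of all genes tested did (1.92% higher, 2.43% lower), and 4 passed at 2 h (3 higher, 1 lower), against 8.79% of all genes (3.75% higher, 5.03% lower). In recovered fragments, 5 of 10 passed at 1 h (4 higher, 1 lower), against 15.9% of all genes (5.63% higher, 10.2% lower), and 8 of 10 at 2 h (6 higher, 2 lower), against 37.1% (12.0% higher, 25.2% lower). This measure adds Mmp10 and Mmp13, both higher, and Timp2, lower at 1 h and higher at 2 h, as well as Timp3 at 1 h (higher) and Adamts1 at 2 h (lower), and it drops Mmp2 at 1 h. The median log2 difference of the 10 genes at 2 h was 0.05 in FPKM and 0.30 in recovered fragments, where the medians of all genes tested were -0.05 and -0.06. Between lines, 3 of 10 genes passed in FPKM for RelA(TA2) against RelA(wt) over the 3 times (1 higher, 2 lower), where 11.7% of all genes did (5.71% higher, 6.02% lower). For RelA(Ser276Ala) against RelA(wt) 2 passed (both lower), beside 12.6% of all genes (7.21% higher, 5.38% lower), and for RelA(TA2) against RelA(Ser276Ala) 1 passed (higher), beside 12.8% (5.81% higher, 7.00% lower). In recovered fragments 6 genes passed for RelA(TA2) against RelA(wt) (3 higher, 3 lower), beside 40.3% of all genes (20.0% higher, 20.3% lower). In RelA(Ser276Ala) against RelA(wt) 6 passed (all lower), beside 43.5% (23.5% higher, 20.1% lower), and in RelA(TA2) against RelA(Ser276Ala) 6 (5 higher, 1 lower), beside 43.0% (19.3% higher, 23.7% lower). Tests throughout are limma's, with adjusted p by Benjamini and Hochberg over all genes tested. Both line comparisons with RelA(wt) share its libraries, as both times share the 0 h libraries. Where libraries of 2 groups are said below not to overlap, the share of all genes without overlap was not worked out.

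**Figure D2:**
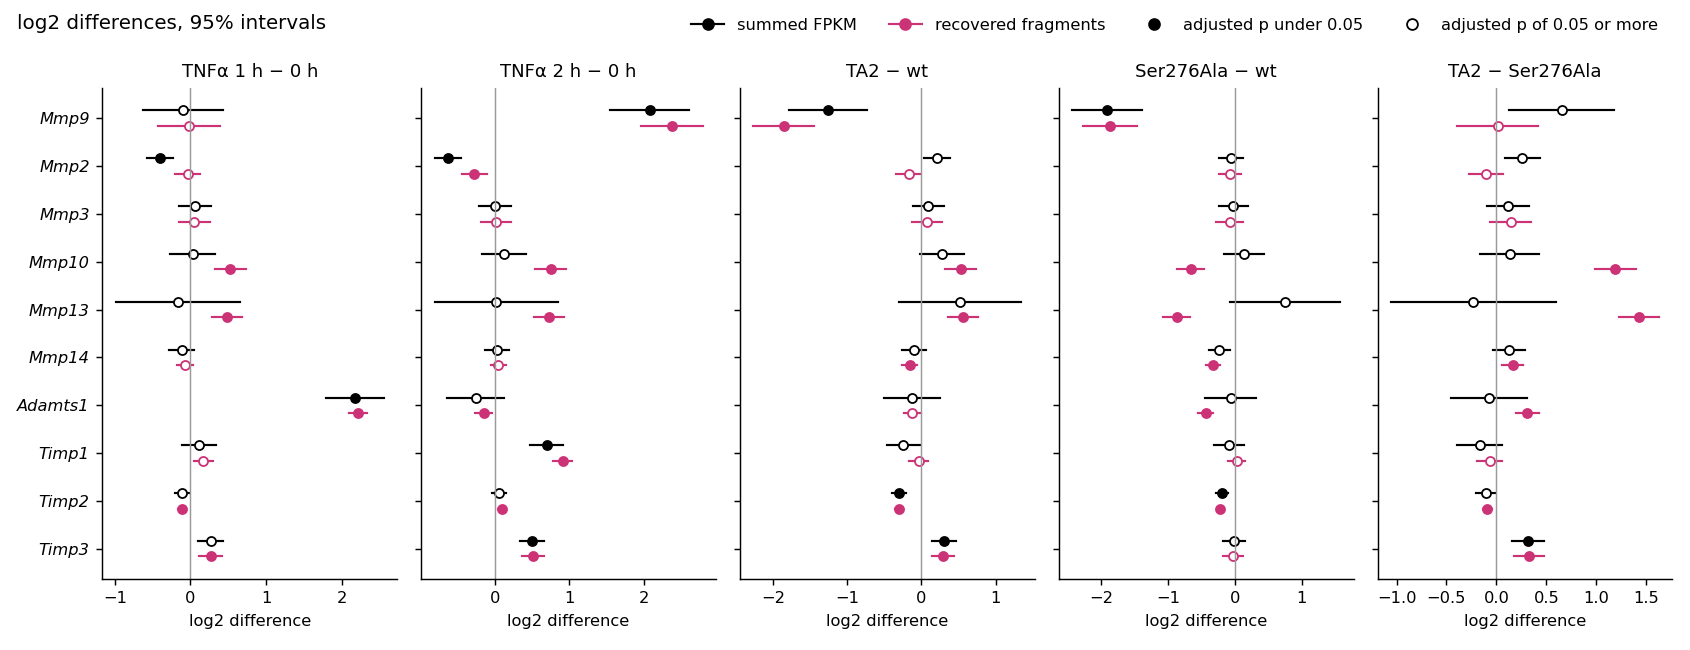
log2 differences with 95% intervals for the 10 genes (rows) in the 5 pooled comparisons (panels), from summed FPKM (black) and recovered fragments (pink), with filled points for adjusted p under 0.05. The measures lie near each other for Timp2 and Timp3 and apart for Mmp10 and Mmp13, which stand at 0.12 and 0.02 in FPKM but at 0.75 and 0.73 in recovered fragments at 2 h of TNFα. They differ as well for Mmp2 with TNFα, and for Adamts1 in RelA(Ser276Ala) against RelA(wt), where only recovered fragments passed.

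Adamts1 gave the one large early response. In RelA(TA2) cells it had 14.3 and 13.7 FPKM at 0 h, 51.3 and 51.6 at 1 h, and 9.31 and 10.9 at 2 h. In RelA(Ser276Ala) cells it had 17.0 and 8.96 FPKM at 0 h, 90.8 and 46.4 at 1 h, and 10.5 and 10.4 at 2 h. In RelA(wt) cells it had 12.2 and 12.6 FPKM at 0 h, 63.2 and 67.3 at 1 h, and 11.2 and 12.4 at 2 h. All libraries at 1 h stood above all libraries at 0 h in each of the 3 lines, and by 2 h the FPKM were down to 9.31 to 12.4. The log2 difference at 1 h over the lines was 2.18 (SE 0.17, adjusted p = 2.08e-05), or 4.53-fold, and 2.22 (SE 0.05, adjusted p = 3.15e-10) in recovered fragments. The high RelA(Ser276Ala) library at 1 h and the higher of that line at 0 h are the 2 libraries in which Adamts1 came in 2 pieces. In recovered fragments the replicates of that line were close, with 48.2 and 47.3 FPM at 0 h and 245 in both libraries at 1 h. On that measure the RelA(Ser276Ala) line was lower than RelA(wt) over the 3 times by a log2 difference of -0.44 (SE 0.05, adjusted p = 6.01e-05), without overlap at any of the 3 times, while FPKM gave -0.06 (SE 0.17, adjusted p = 0.884). At 2 h Adamts1 was lower than at 0 h in RelA(TA2) cells in recovered fragments, by -0.46 (SE 0.09, adjusted p = 0.00406), with 49.7 and 58.2 FPM at 2 h beside 77.2 and 70.9 FPM at 0 h. Over the 3 lines the value at 2 h was -0.15 (SE 0.05, adjusted p = 0.0459), a call lost in 14 of the 18 fits that leave out 1 library (adjusted p up to 0.124). RelA(TA2) cells reached 277 and 289 FPM at 1 h and RelA(wt) cells 333 and 363, and the difference in response at 1 h, -0.45 (SE 0.13), did not pass (adjusted p = 0.107).

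**Figure D3:**
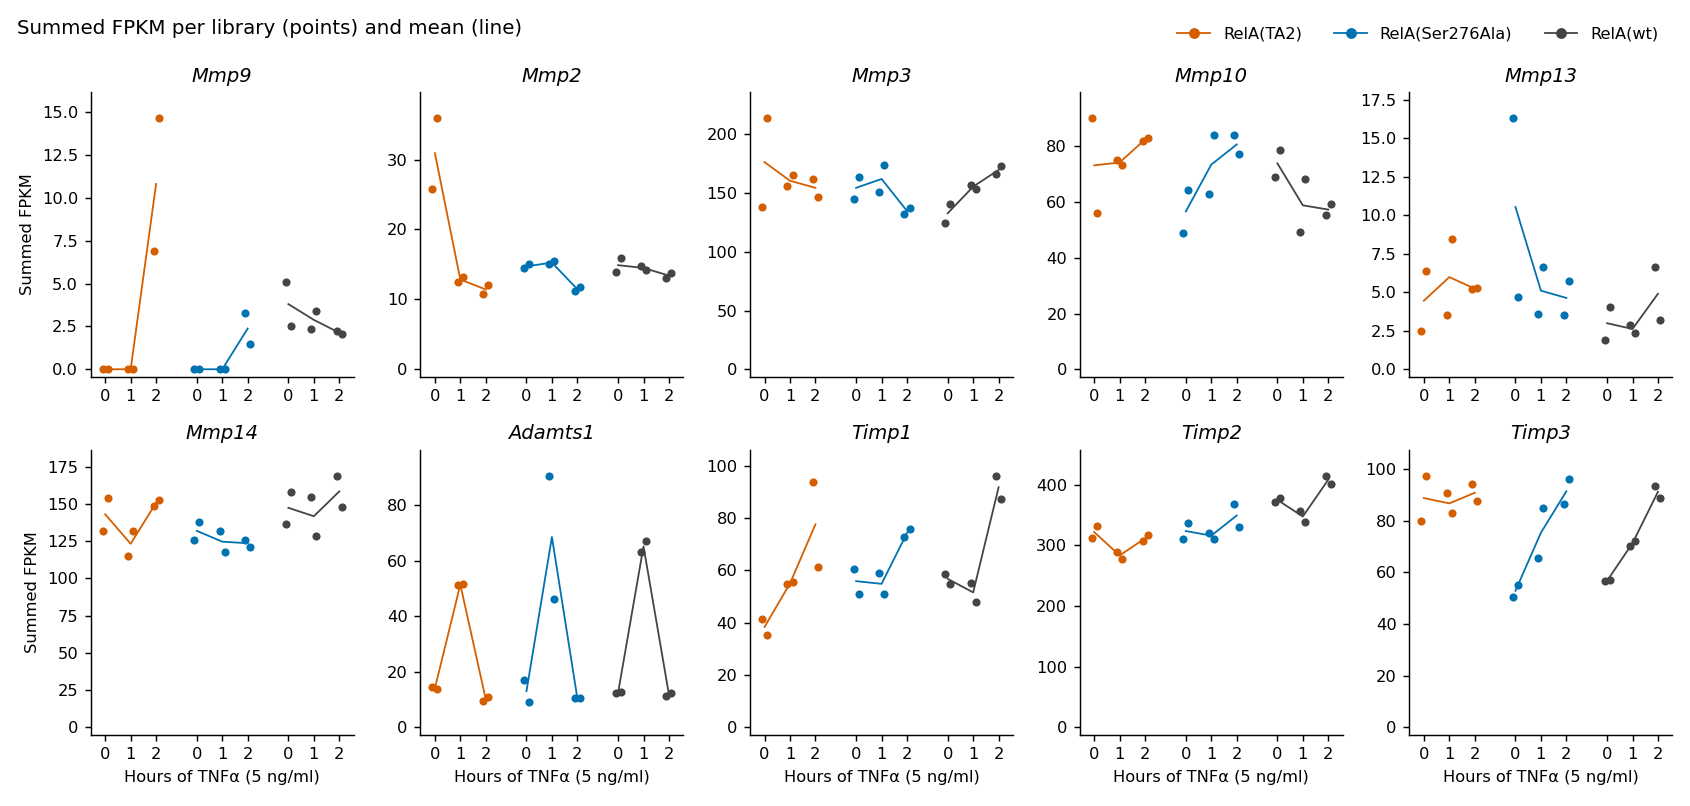
Summed FPKM of the 10 genes in every library (points, 2 per condition) and their mean (lines) at 0, 1 and 2 h of TNFα, for RelA(TA2), RelA(Ser276Ala) and RelA(wt) from left to right. Adamts1 peaked at 1 h in each line, Timp1 was highest at 2 h, and the RelA(TA2) values of Mmp2 at 0 h, 25.8 and 36.0 FPKM, stand above all its others.

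Mmp3, Mmp10 and Mmp13 lie near each other on chromosome 9 (mm10, plus strand), Mmp13 at 7272514 to 7283333, Mmp3 at 7445822 to 7455974 and Mmp10 at 7502360 to 7510240, each with 10 exons. The 250 bases before the start of each are shown because these genes lie together and each holds the motif searched for. They come from RefSeq on GRCm38.p6, the mm10 assembly, at chr9:7445572-7445821, chr9:7502092-7502341 and chr9:7272264-7272513, and capitals mark a match to the AP-1 motif TGANTCA.
Mmp3: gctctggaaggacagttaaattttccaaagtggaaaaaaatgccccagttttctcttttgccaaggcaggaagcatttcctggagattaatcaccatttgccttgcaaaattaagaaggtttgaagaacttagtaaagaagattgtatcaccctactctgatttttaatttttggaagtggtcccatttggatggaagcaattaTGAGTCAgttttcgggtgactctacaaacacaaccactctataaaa
Mmp10: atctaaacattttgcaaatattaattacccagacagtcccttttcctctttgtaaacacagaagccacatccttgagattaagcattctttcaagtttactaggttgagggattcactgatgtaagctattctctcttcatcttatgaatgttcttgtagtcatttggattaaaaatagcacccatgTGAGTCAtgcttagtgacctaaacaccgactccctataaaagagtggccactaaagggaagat
Mmp13: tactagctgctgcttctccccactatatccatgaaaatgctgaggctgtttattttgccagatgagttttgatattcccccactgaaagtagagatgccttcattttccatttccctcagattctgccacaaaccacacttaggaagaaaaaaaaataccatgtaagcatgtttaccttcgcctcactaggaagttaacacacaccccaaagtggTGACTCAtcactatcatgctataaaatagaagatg
Windows of 300 bases, 250 before and 50 after the start, were searched on both strands for TGANTCA and for the κB consensus. The AP-1 motif was found once in each of these 3 windows, beginning 46 bases before the RefSeq start in Mmp3, 63 in Mmp10 and 35 in Mmp13 (the RefSeq start of Mmp10 lies 18 bases before that of the merged models given above), and in 7.81% of all 32851 promoter windows of the table. It was not found in the windows of Mmp14, Adamts1, Timp1, Timp2 and Timp3, and the κB consensus, found in 4.51% of all windows, matched none of the 8. Mmp2 and Mmp9 had no entry in the table.

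Mmp10 rose with TNFα in recovered fragments and stood in the order RelA(TA2), RelA(wt), RelA(Ser276Ala) at every time. RelA(TA2) cells had 63.2 and 95.1 FPM at 0 h, 131 and 129 at 1 h, and 140 and 144 at 2 h. RelA(Ser276Ala) cells had 37.1 and 42.5 at 0 h, 43.9 and 57.8 at 1 h, and 59.6 and 58.7 at 2 h. RelA(wt) cells had 55.5 and 59.5 at 0 h, 84.4 and 78.9 at 1 h, and 96.1 and 106 at 2 h. At each of the 3 times no libraries of 2 lines overlapped, and in each line both later times lay above 0 h. The log2 differences were 0.53 (SE 0.09, adjusted p = 0.00239) at 1 h and 0.75 (SE 0.09, adjusted p = 1.21e-04) at 2 h over the lines, 0.53 (SE 0.09, adjusted p = 0.00104) for RelA(TA2) against RelA(wt), and -0.66 (SE 0.09, adjusted p = 1.97e-04) for RelA(Ser276Ala) against RelA(wt). Between RelA(TA2) and RelA(Ser276Ala) cells the difference was 1.19 (SE 0.09, adjusted p = 2.55e-06), or 2.28-fold. In summed FPKM no call was made. RelA(TA2) lay above RelA(wt) without overlap at 2 of 3 times, and the log2 differences were 0.03 at 1 h, 0.12 at 2 h, 0.27, 0.14 and 0.13 in the same order, with adjusted p between 0.247 and 0.957. All 6 RelA(Ser276Ala) libraries and both RelA(wt) libraries at 0 h, the low ones by fragments, were those in which Mmp10 came in 2 pieces, together with RelA(TA2) at 0 h replicate 1. Mmp10 and Mmp3 share sequence: their longest open reading frames were identical at 80.4% of 1420 aligned bases, with a shared run of 104 bases, so reads could be assigned to either.

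Mmp13 stood in the same order in recovered fragments, at a much lower level. The RelA(TA2) libraries held 6.79 and 7.78 FPM at 0 h, 9.80 and 10.5 at 1 h, and 14.2 and 14.5 at 2 h. Those of RelA(Ser276Ala) held 2.26 and 3.13 at 0 h, 3.34 and 4.56 at 1 h, and 4.08 and 3.97 at 2 h. Those of RelA(wt) held 5.22 and 4.73 at 0 h, 7.76 and 6.81 at 1 h, and 8.35 and 8.73 at 2 h. Again the lines did not overlap at any time and both later times lay above 0 h in each line. Mmp13 was higher at 1 h by a log2 difference of 0.48 (SE 0.09, adjusted p = 0.00334) and at 2 h by 0.73 (SE 0.09, adjusted p = 1.12e-04) over the lines. RelA(TA2) cells stood above RelA(Ser276Ala) cells by 1.43 (SE 0.09, adjusted p = 4.53e-07), or 2.69-fold. Set against RelA(wt), the difference was 0.56 (SE 0.09, adjusted p = 5.51e-04) for RelA(TA2) and -0.87 (SE 0.09, adjusted p = 2.18e-05) for RelA(Ser276Ala). In FPKM the replicates scattered widely, with 16.4 and 4.72 FPKM in RelA(Ser276Ala) cells at 0 h as the extreme, and none of these comparisons passed (log2 difference of 0.75 for RelA(Ser276Ala) against RelA(wt), adjusted p = 0.238). The calls for Mmp10 and Mmp13 in recovered fragments held when any 1 library was left out, with log2 differences of RelA(TA2) against RelA(Ser276Ala) between 1.09 and 1.29 for Mmp10 and between 1.36 and 1.50 for Mmp13.

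Mmp3, which lies between them, passed no pooled test on either measure. It had 138 and 214 FPKM at 0 h, 156 and 165 at 1 h and 162 and 147 at 2 h in RelA(TA2) cells. The RelA(Ser276Ala) values were 145 and 164, 151 and 174, and 133 and 137 FPKM at the same times. Those of RelA(wt) were 125 and 141, 157 and 154, and 166 and 174 FPKM. Both later times stood above 0 h only in RelA(wt) cells. Over the lines the log2 difference at 2 h was 0.00 in FPKM (95% interval -0.21 to 0.21) and 0.02 in recovered fragments (-0.19 to 0.22), where Mmp10 and Mmp13 had 0.75 and 0.73. The difference between genes was not tested.

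**Figure D4:**
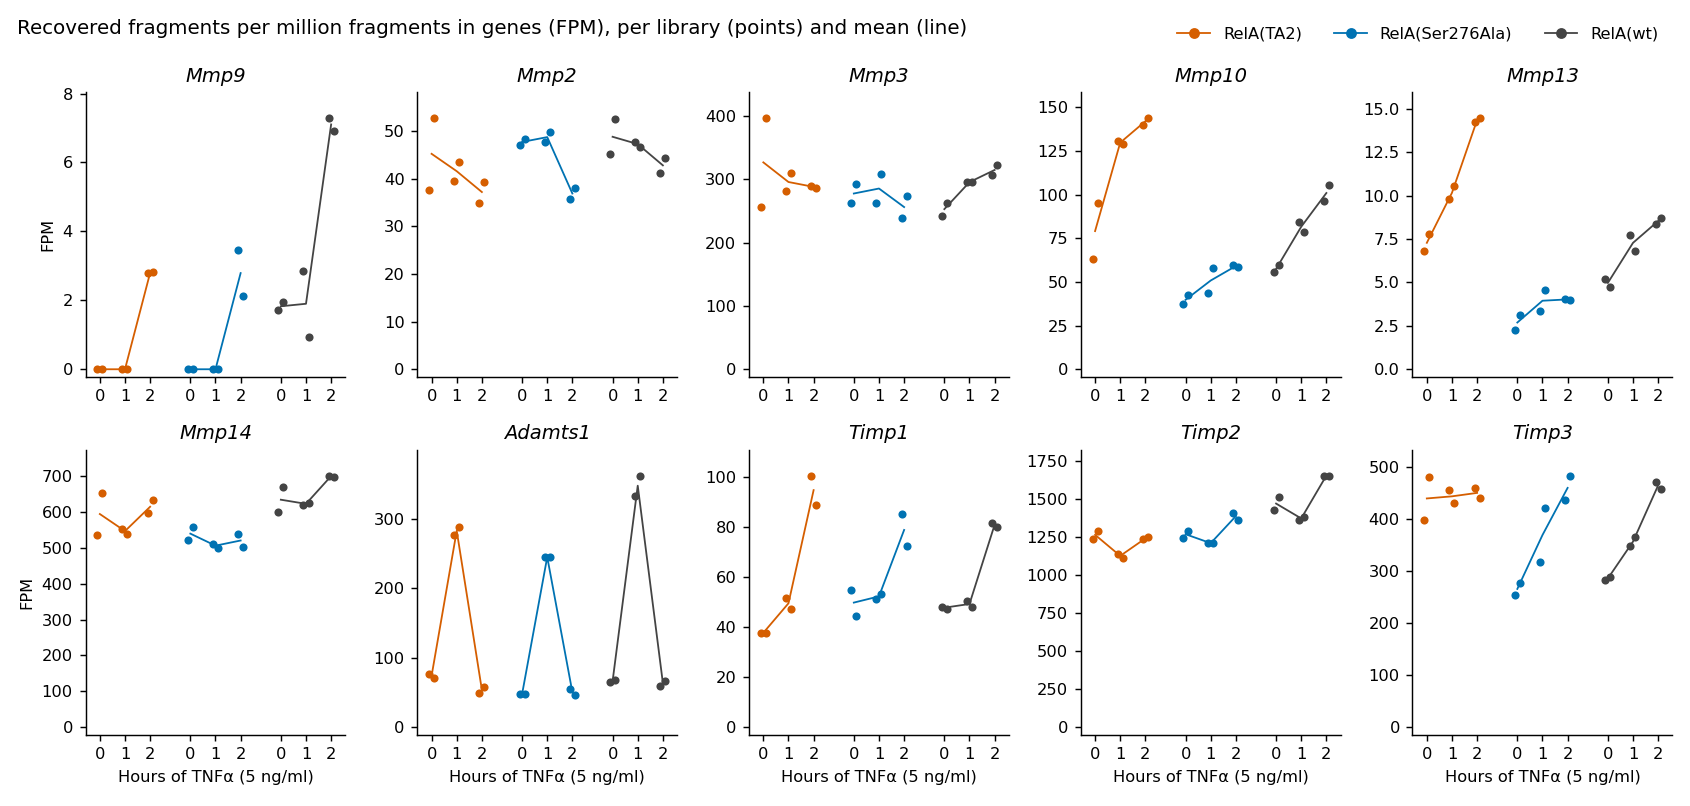
Recovered fragments scaled to 1000000 fragments in genes (FPM) for the 10 genes in every library (points, 2 per condition) and their mean (lines) at 0, 1 and 2 h of TNFα, for RelA(TA2), RelA(Ser276Ala) and RelA(wt) from left to right. Mmp10 and Mmp13 are highest in RelA(TA2) and lowest in RelA(Ser276Ala) cells at each time, and Mmp9 reached 7.30 and 6.90 FPM in RelA(wt) cells at 2 h, against at most 3.46 in the mutant lines.

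Mmp9, a known NF-κB target in many cell types, was the rarest of the 10 mRNAs. It lies at 164948251 to 164955846 of chromosome 2 (mm10, plus strand) with 13 exons. It was listed at 0 at 0 h and 1 h in both replicates of RelA(TA2) and RelA(Ser276Ala) cells. Since no assembled piece of Mmp9 had fewer than 10 fragments, a 0 here means that no transcript was assembled and not that no fragment was present. At 2 h, RelA(TA2) cells had 6.93 and 14.7 FPKM and RelA(Ser276Ala) cells 3.27 and 1.49 FPKM. In RelA(wt) cells it had 5.08 and 2.53 FPKM at 0 h, 2.34 and 3.43 at 1 h, and 2.22 and 2.04 at 2 h. By FPKM alone the log2 difference of 2 h from 0 h in RelA(wt) cells was -0.64 (adjusted p = 0.601), and RelA(TA2) cells stood above them at 2 h by 2.01 (adjusted p = 0.0278), with 1.87% and 3.24% of all genes called in these 2 comparisons.

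The recovered fragments of Mmp9 gave another picture. RelA(TA2) cells had 70 fragments in each library at 2 h (2.78 and 2.81 FPM), and RelA(Ser276Ala) cells had 90 and 48 (3.46 and 2.12 FPM). RelA(wt) cells had 39 and 51 fragments at 0 h, 79 and 24 at 1 h, and 161 and 155 at 2 h, or 1.71 and 1.94, 2.85 and 0.950, and 7.30 and 6.90 FPM. The RelA(wt) libraries at 2 h were thus the highest of all, and their gene was assembled in 1 piece over 2987 and 3034 bases, while each RelA(TA2) library at 2 h held 4 pieces over 2464 and 2374 bases. Within RelA(wt) cells Mmp9 was higher at 2 h than at 0 h by a log2 difference of 1.71 (SE 0.32, adjusted p = 0.00578), or 3.27-fold, where 12.3% of all genes passed. At 2 h both mutants were lower than RelA(wt) on this measure, by -1.21 (adjusted p = 0.0224) in RelA(TA2) and -1.24 (adjusted p = 0.0158) in RelA(Ser276Ala) cells, where 21.8% and 26.3% of all genes were called. The RelA(TA2) call was lost without any 1 of its 4 libraries (adjusted p = 0.0842 to 0.0963), and the RelA(Ser276Ala) call without RelA(wt) replicate 1, RelA(wt) replicate 2 or RelA(Ser276Ala) replicate 2 (0.0660 to 0.124). Over the 3 times both measures called Mmp9 lower in each mutant and higher at 2 h of TNFα, but these fits contain the libraries listed at 0, so that their size depends on the 0.5 added to each value and no fold is given.

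Mmp2, the other gelatinase, fell at 2 h of TNFα. RelA(TA2) cells had 25.8 and 36.0 FPKM at 0 h, 12.4 and 13.2 at 1 h, and 10.8 and 12.0 at 2 h. RelA(Ser276Ala) cells had 14.4 and 15.0 FPKM at 0 h, 15.1 and 15.5 at 1 h, and 11.1 and 11.7 at 2 h. RelA(wt) cells had 13.9 and 15.9, 14.8 and 14.2, and 13.1 and 13.7 FPKM. In FPKM the 2 h libraries lay below the 0 h libraries in all 3 lines, and in FPM in 2 of 3, with overlap in RelA(TA2) cells. The change came to a pooled log2 difference of -0.63 (SE 0.08, adjusted p = 7.87e-04), which was -0.27 (SE 0.08, adjusted p = 0.0158) in recovered fragments. The high RelA(TA2) values at 0 h come from the only 2 libraries in which Mmp2 was in 2 pieces. There it was above RelA(wt) by 1.01 in FPKM (adjusted p = 0.00298, with 3.56% of all genes called) and at -0.12 in recovered fragments (adjusted p = 0.549), with 37.6 and 52.8 FPM against 45.1 and 52.5 in RelA(wt) cells. The FPKM call at 1 h, -0.40 (SE 0.08, adjusted p = 0.0148), was likewise not made in recovered fragments (-0.04, SE 0.08, adjusted p = 0.813).

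Mmp14, the membrane-bound activator of the Mmp2 precursor, was abundant and passed no FPKM test. It had 132 and 154 FPKM at 0 h, 115 and 132 at 1 h and 149 and 153 at 2 h in RelA(TA2) cells. RelA(Ser276Ala) cells had 126 and 138, 132 and 118, and 126 and 121 FPKM, and RelA(wt) cells 137 and 158, 155 and 129, and 169 and 148 FPKM. In recovered fragments the RelA(Ser276Ala) libraries (499.7 to 558 FPM) lay below those of RelA(wt) (599 to 701 FPM) at all 3 times, by a log2 difference of -0.32 (SE 0.05, adjusted p = 2.58e-04). The FPKM value was -0.23 (SE 0.07, adjusted p = 0.0660). RelA(TA2) was lower than RelA(wt) in recovered fragments by -0.16 (SE 0.05, adjusted p = 0.0202), a call lost without RelA(wt) at 0 h replicate 2 (0.0601) or RelA(TA2) at 2 h replicate 1 (0.0562). RelA(TA2) was higher than RelA(Ser276Ala) by 0.16 (SE 0.05, adjusted p = 0.0173), lost without RelA(Ser276Ala) at 0 h replicate 1 (0.0514). For TNFα at 2 h over the lines the log2 difference of Mmp14 was 0.03 in FPKM, with a 95% interval of -0.13 to 0.19.

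Of the inhibitors, Timp1, the family member best known for induction by cytokines and growth factors, rose at 2 h. Its FPKM in RelA(TA2) cells were 41.3 and 35.4 at 0 h, 54.6 and 55.3 at 1 h, and 93.7 and 61.4 at 2 h. In RelA(Ser276Ala) cells it had 60.7 and 51.0, 58.8 and 50.8, and 72.8 and 75.7 FPKM. In RelA(wt) cells it had 58.5 and 54.9, 55.3 and 47.8, and 96.2 and 87.3 FPKM. Both 2 h libraries lay above both 0 h libraries in each line, and the log2 difference over the lines was 0.69 (SE 0.10, adjusted p = 0.00188) in FPKM and 0.91 (SE 0.06, adjusted p = 7.64e-07) in recovered fragments. Taken line by line, the FPKM difference passed only in RelA(TA2) cells (0.98, adjusted p = 0.0123, with 4.06% of all genes called, lost without its 0 h replicate 2 at 0.0754 or with the highest transcript only at 0.0900), and in recovered fragments it passed in RelA(TA2) (1.31, adjusted p = 8.36e-06), RelA(Ser276Ala) (0.66, adjusted p = 0.00257) and RelA(wt) cells (0.75, adjusted p = 6.84e-04), where 26.6%, 9.96% and 12.3% of all genes did. No pooled line comparison passed for Timp1.

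Timp2, which is made constitutively by fibroblasts and binds Mmp14 as well as blocking it, was lower in both mutants. Its level in RelA(TA2) cells was 311 and 332 FPKM at 0 h, 289 and 278 at 1 h, and 306 and 317 at 2 h. Its level in RelA(Ser276Ala) cells was 310.2 and 337, 321 and 311, and 368 and 330.3 FPKM. Its level in RelA(wt) cells was 372 and 378, 357 and 338, and 415 and 401 FPKM, above both mutants at every time without overlap. The log2 difference from RelA(wt) was -0.30 (SE 0.04, adjusted p = 0.00127) in RelA(TA2) and -0.19 (SE 0.04, adjusted p = 0.0145) in RelA(Ser276Ala) cells, and -0.31 (SE 0.02, adjusted p = 1.43e-06) and -0.22 (SE 0.02, adjusted p = 1.97e-05) in recovered fragments. With TNFα it moved by -0.11 at 1 h (SE 0.02, adjusted p = 0.00491) and 0.09 at 2 h (SE 0.02, adjusted p = 0.00788) in recovered fragments, neither of which passed in FPKM.

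Timp3, which binds to the matrix and also inhibits ADAM and ADAMTS proteases, rose at 2 h over the lines and differed between lines before TNFα. RelA(TA2) cells had 80.0 and 97.5 FPKM at 0 h, 90.6 and 82.9 at 1 h, and 94.1 and 87.6 at 2 h. RelA(Ser276Ala) cells had 50.6 and 55.2, 65.8 and 85.0, and 86.5 and 96.3 FPKM. RelA(wt) cells had 56.5 and 56.9, 70.4 and 72.2, and 93.7 and 88.7 FPKM, so that the lines were apart at 0 h and together at 2 h. The log2 difference at 2 h was 0.50 (SE 0.07, adjusted p = 0.00188) over the lines and, line by line, 0.04 (adjusted p = 0.953) in RelA(TA2), 0.78 (adjusted p = 0.0179) in RelA(Ser276Ala) and 0.68 (adjusted p = 0.0220) in RelA(wt) cells, where 4.06%, 0.973% and 1.87% of all genes were called. The RelA(Ser276Ala) call was lost without its 0 h replicate 1 (0.0777) or 2 h replicate 2 (0.0631), and the RelA(wt) call without any 1 of its own 4 libraries at these times (adjusted p = 0.0669 to 0.111), while in recovered fragments both held without any 1 library. At 1 h it was 0.27 on both measures, which passed in recovered fragments (SE 0.07, adjusted p = 0.0193) but not in FPKM (adjusted p = 0.0829), and was lost without RelA(TA2) at 1 h replicate 1 (0.0545), RelA(Ser276Ala) at 0 h replicate 1 (0.0580) or RelA(wt) at 1 h replicate 2 (0.0539). RelA(TA2) against RelA(wt) came to 0.63 at 0 h (adjusted p = 0.0229, with 3.56% of all genes called) and -0.01 at 2 h. The call at 0 h was lost without RelA(TA2) replicate 2 (0.119), RelA(wt) replicate 1 (0.0957) or RelA(wt) replicate 2 (0.0798), and in recovered fragments (0.61, adjusted p = 0.00378) it held without any 1 library. The difference between the 2 responses itself did not pass (-0.64, SE 0.18, adjusted p = 0.372, and -0.66, adjusted p = 0.147, in recovered fragments), so that a smaller response in RelA(TA2) cells is not shown. Over the 3 times RelA(TA2) was higher than RelA(wt) by 0.30 (SE 0.07, adjusted p = 0.0231), a call lost without any 1 of 5 libraries (RelA(TA2) at 1 h or 2 h replicate 1, and RelA(wt) at 0 h or 1 h replicate 1 or at 2 h replicate 2, adjusted p = 0.0525 to 0.0600). It was higher than RelA(Ser276Ala) by 0.31 (SE 0.07, adjusted p = 0.0184), lost without RelA(TA2) at 1 h replicate 1 (0.0503) or RelA(Ser276Ala) at 0 h replicate 1 (0.0509). In recovered fragments these differences were 0.29 (adjusted p = 0.00495) and 0.32 (adjusted p = 0.00262).

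Whether a mutation changed the response to TNFα was tested as the difference of each mutant's response from that of RelA(wt), in 40 tests over the 10 genes, both mutants and both times. In FPKM 3 passed, namely Mmp2 in RelA(TA2) at 1 h and at 2 h and Mmp9 in RelA(TA2) at 2 h, beside 0.294% of all genes at 1 h and 0.253% at 2 h (0.188% and 0.172% for RelA(Ser276Ala)). All 3 involve libraries in which the gene was in pieces or not assembled. In recovered fragments none of the 40 passed in limma, with 7 at an unadjusted p under 0.05 and a lowest adjusted p of 0.107, for Adamts1 in RelA(TA2) at 1 h, beside 1.68% and 0.335% of all genes for RelA(TA2) and 0.245% and 0.278% for RelA(Ser276Ala) at 1 h and 2 h. Per covered kilobase 1 of 40 passed, Mmp9 in RelA(Ser276Ala) at 2 h (adjusted p = 0.0444), whose 0 h libraries are listed at 0. The share of all genes called on that measure was not worked out.

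Among 54 further genes of the system, 34 were in the tested range, of which 8 of 17 were other matrix metalloproteases, 10 of 18 other ADAMTS proteases, 7 of 7 ADAM sheddases and 9 of 12 regulators of activation and clearance. At 1 h of TNFα none of the 34 passed limma's test in FPKM, beside 4.35% of all genes, with 1 at an unadjusted p under 0.05. In recovered fragments 3 of the 34 were called, beside 15.9% of all genes. At 2 h 2 passed in FPKM, beside 8.79% of all genes, Mmp11 (-0.39, adjusted p = 0.0371) and Mmp16 (0.52, adjusted p = 0.0457), Mmp16 having the opposite sign in recovered fragments (-0.20, adjusted p = 0.00979). Between RelA(TA2) and RelA(wt) 2 genes were higher and 7 lower in FPKM, beside 5.71% and 6.02% of all genes. The higher ones were Adam12, with 5.39 to 13.2 FPKM in RelA(TA2) and 0 (not assembled) to 2.04 FPKM in RelA(wt) cells, and the clearance receptor Lrp1 (0.37, adjusted p = 0.0295). Pcsk6, a convertase that activates protease precursors, was lower by -1.36 (SE 0.05, adjusted p = 1.46e-07). In RelA(Ser276Ala) cells 6 genes were lower than in RelA(wt) and none higher, beside 5.38% and 7.21% of all genes, among them the membrane-anchored inhibitor Reck (-0.47, adjusted p = 0.00339) and Mmp12. Mmp12 was listed at 0 in 3 of 6 RelA(Ser276Ala) libraries, so that no fold is given. Mmp15, a membrane-bound relative of Mmp14, was listed at 0 (not assembled) in all 12 libraries of both mutants and at 1.05 to 6.86 FPKM (13 to 56 fragments) in the 6 of RelA(wt). It came into the tested range only through these RelA(wt) libraries, at few fragments. Of the other genes in the cluster of Mmp3, Mmp10 and Mmp13, Mmp1b stood in recovered fragments in RelA(TA2) above RelA(Ser276Ala) by 1.26 (SE 0.11, adjusted p = 6.32e-06). It had 264 to 801 fragments in RelA(TA2), 162 to 197 in RelA(Ser276Ala) and 183 to 533 in RelA(wt) cells. Mmp1a, listed at 0 in 3 RelA(TA2) libraries and 1 of RelA(Ser276Ala), had 0 to 39.5 fragments in RelA(TA2), 0 to 26 in RelA(Ser276Ala) and 57 to 88 in RelA(wt) cells. Mmp12 had 16 to 64 in RelA(TA2), 0 to 21 in RelA(Ser276Ala) and 55 to 134 in RelA(wt) cells.

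The genes most like each member over the 18 libraries were found by Pearson's r of log2(FPKM + 0.5) and are given as a description, since the libraries share lines, times and depth. Adamts1 was most like Btg2 (r = 0.969) and Jun (r = 0.962), both known early response genes. Timp1 was most like Id2 (0.878), Timp2 like Magee1 (0.895) and Timp3 like Actg1 (0.887). In recovered fragments Adamts1 was most like Btg2 (0.981) and Kprp (0.974), Mmp2 like Dyrk1b (0.893), Mmp10 like Siglecg (0.950) and Slfn2 (0.944), Mmp13 like Lox (0.949), which crosslinks collagen, and Slfn2 (0.943), and Mmp9 like Cx3cl1 (0.931), a chemokine induced by TNFα.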

How the data were processed

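RNA was sequenced from 18 libraries, 2 for each of 3 fibroblast lines at 0, 1 and 2 h of TNFα. Per the labels and the study's methods, the authors aligned reads to mm10 with TopHat2 2.0.5 over Bowtie2 2.0.0.7 and assembled transcripts per library with Cufflinks 2.0.2; the deposited transcript models carry FPKM values and their confidence limits, along with other attributes, as text. Transcripts were assigned to genes through the merged models, and FPKM was summed per gene and library. Fragment numbers were worked out for each transcript by setting a confidence limit against the FPKM. In a locus with several transcripts, transcript length was used in place of the limit. Of the recovered counts under 500, 88.9% to 90.2% lay within 0.02 of a whole number. All recovered fragments were scaled to 1000000 fragments in genes (FPM).

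The 12236 genes that reached 1 FPKM in 2 or more libraries were fitted with limma 3.58.1 (R 4.3.3) on log2(FPKM + 0.5), so that fold changes are on that scale and understate changes of low genes, with 9 condition means, a mean-dependent variance prior, two-sided tests and Benjamini-Hochberg adjustment over all genes at 0.05. Recovered fragments were fitted likewise, as an alternative. TNFα comparisons average the lines, and line comparisons the times. In simulated data for the 1 h comparison over 12236 genes, 68% of genes changed by a log2 of 1 and 94% of those changed by 2 were found in FPKM, and 99% and 97% in fragments. False calls made up 7.95% of the calls in FPKM, above the threshold of 0.05, and 4.85% in fragments.

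The members and the lists of other genes were chosen with earlier results of these data known. All 10 members are named, while of the genes that passed in the other lists only some are named. The study's methods call the 2 replicates of a condition independent, but neither they nor the labels say that these come from separate cultures. The p-values therefore measure the spread between these libraries, which may be technical. In bulk samples fewer cells of a type and less RNA per cell cannot be told apart. Counting by strand is not given in the sources used here. RefSeq promoter sequences were matched by symbol for 8 of 10 genes.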

Additional observations from a re-analysis of the deposited data

Results flagged for a closer look

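The response of Mmp2 to TNFα differed between RelA(TA2) and RelA(wt) cells by a log2 difference of -1.18 at 1 h (SE 0.19, adjusted p by limma = 0.0333) and of -1.24 at 2 h (SE 0.19, adjusted p = 0.0332) in summed FPKM, past the test of the difference between the lines. These calls were lost in 9 and 10 of the 18 fits that leave out 1 library (adjusted p up to 0.0710 and 0.0581). In recovered fragments the same differences were -0.06 (adjusted p = 0.916) and -0.08 (adjusted p = 0.897), and both RelA(TA2) libraries at 0 h had Mmp2 in 2 pieces. The response of Mmp9 at 2 h differed between RelA(TA2) and RelA(wt) cells by 5.05 in summed FPKM (SE 0.58, adjusted p = 0.00540), with RelA(TA2) libraries listed at 0 at 0 h, and by 1.01 (adjusted p = 0.353) in recovered fragments.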

How the results depend on the processing

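In FPKM the numbers of members called were 2 at 1 h, 4 at 2 h, 3 for RelA(TA2) against RelA(wt), 2 for RelA(Ser276Ala) against RelA(wt) and 1 for RelA(TA2) against RelA(Ser276Ala). In that order they were 5, 8, 6, 6 and 6 in recovered fragments, 6, 7, 7, 6 and 6 in recovered fragments with the replicate number as a block, and 5, 7, 6, 6 and 6 in recovered fragments per covered kilobase, the last 2 chosen after seeing the data. For these last 2 the share of all genes called was not worked out, so the counts cannot be set against it. With only the highest transcript per gene, 1 was called at 1 h and 2 for RelA(TA2) against RelA(Ser276Ala). Median-of-ratios scaling, quantile normalization and transcripts of at least 300 bases each gave 2 for that last comparison. Fitting only the groups compared gave 1 at 1 h and 0 for the last comparison. Without the 2 libraries with fewer fragments in genes, also chosen after seeing the data, there were 5 for RelA(TA2) against RelA(wt) and 2 for the last comparison. Leaving out 1 library at a time gave 2 to 3 at 1 h, 4 at 2 h, 2 to 4, 2 to 3 and 0 to 3 for the line comparisons.

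RelA(TA2) against RelA(wt) turned direction for Mmp2 at 0 h, with -0.12 in recovered fragments, -0.12 with the block and -0.12 per covered kilobase, and for Mmp9 at 2 h, with -1.21, -1.21 and -0.79. Of 33 called results for single members, 23 stayed called with the highest transcript only, 25 in recovered fragments and 12 with only the groups compared. The replicate numbers did not pair the samples. The difference of replicate 1 from replicate 2 over the genes tested was compared between conditions, and the 36 correlations of these differences ran from -0.08 to 0.07. With the number as a block in FPKM the counts were 2, 4, 3, 2 and 2. Depth limits Mmp9, at 24 to 161 fragments where assembled, and Mmp13, at 57 to 361.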
